A study of Mus musculus with 12 samples.

Results

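The genes described here are 32 components of the machinery of RNA polymerase I (Pol I) and RNA polymerase III (Pol III), 12 assigned to Pol I and 20 to Pol III. They were taken by symbol from a list of the enzymes' subunits and dedicated factors. No measured value entered that rule, but the list was chosen with earlier results of these data known. All 32 were among the 51826 gene identifiers of the forelimb table and the 55401 identifiers of the culture tables, and all 32 passed the filter on low counts in both, where 19987 and 14030 genes were tested.

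RNA sequencing compared mice lacking Impdh2 with wild-type (WT) mice in 12 libraries, 6 groups of 2. The 4 forelimb samples were taken at embryonic day E12.5 and were either WT or Prx-cKO, in which a Prx-driven Cre deletes Impdh2 in limb mesenchymal progenitors and leaves the gene intact in the other cells of the limb. The 8 culture libraries came from marrow cells of WT mice or of LysM-cKO mice, in which the deletion is directed to myeloid cells. Marrow was grown for 3 days with conditioned medium equivalent to 20 ng/ml M-CSF and then given the osteoclast-inducing cytokine RANKL at 40 ng/ml, per the labels' protocols, and each genotype has cultures titled R40D3 and R0D3. What R40 and R0 stand for is not spelled out and all 8 cultures share 1 treatment label, so the titles serve as names only. Nothing in the labels says that the 2 samples of a group came from separate animals or cultures, so every p-value measures the spread between these samples, which may be technical.

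Pol I makes the long precursor of the large ribosomal RNAs in the nucleolus, and Pol III makes transfer RNAs, 5S ribosomal RNA and other short RNAs. Each enzyme needs its own assembly factors at the promoter: UBF (Ubtf), the Rrn3 protein and the TAF1 subunits of selectivity factor SL1 for Pol I, and TFIIIA, TFIIIC and TFIIIB for Pol III. Impdh2 encodes the inosine monophosphate dehydrogenase that commits purine precursors to guanine nucleotides, and both enzymes use GTP as a substrate.

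The 4 forelimb libraries held 28892215 to 69466572 counts each and the 8 culture libraries 16009146 to 19221865, and levels are given as CPM, counts relative to the scaled library size. Impdh2 was at 260.4 and 272 CPM in the WT forelimbs and 169.7 and 199 in Prx-cKO, which differed by -0.53 on the log2 scale (SE 0.16) and did not pass (edgeR adjusted p = 0.443). Its culture levels were 22.3 to 28.2 CPM in WT and 7.03 to 8.38 CPM in LysM-cKO, a log2 fold change of -1.73 at R40D3 (edgeR adjusted p = 0.0386) and -1.81 at R0D3 (edgeR adjusted p = 0.0323). Impdh2 did not pass in fits of only the 4 samples compared or without any 1 of them (edgeR adjusted p up to 0.661 and 0.546), nor at R40D3 with library size alone, while its log2 fold change was -1.63 or lower in each of those fits. All 8 cultures are labelled osteoclast, but the summed CPM of 11 osteoclast markers was 13272 to 38999 at R40D3 and 325 to 471 at R0D3, where Calcr was at 0 in both genotypes. Replicate 2 of LysM-cKO stood apart in both cultures: 8 stromal fibroblast markers summed to 415 and 488 CPM there, against 1169 to 1562 in the other 6 culture libraries. Over the 32 genes, counts per library ran from 570 (Taf1a) to 14110 (Ubtf) in the forelimb and from 60 (Polr1e) to 2633 (Ubtf) in the cultures.

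Levels can be compared between genes only per length, so CPM was divided by the kilobases of each gene's exons. That length joins the exons of all annotated transcripts, so a gene expressed as a shorter transcript ranks too low. Gtf3c2 shares 38.9% of its exon bases with Gm29609 on the same strand, so its reads may be mixed. In WT forelimbs the Pol I genes with the highest level per kb were Polr1c (35.4 CPM per kb ± 4.3, SD, n = 2), Polr1d (27.9 ± 8.5) and Ubtf (26.4 ± 5.2), which overlapped each other from neighbour to neighbour. Polr1c and Polr1d encode the small pair of subunits that sits in Pol I and in Pol III alike, so neither belongs to 1 enzyme. Rrn3, which brings Pol I to its promoter, followed at 19.1 ± 3.5, and the largest subunit Polr1a (5.91 ± 1.4) and the termination factor Ttf1 (4.61 ± 0.52) were lowest. Among Pol III genes the TFIIIC subunit Gtf3c6 (29.4 ± 1.8), the Pol III repressor Maf1 (28.9 ± 1.4) and the small subunit Polr3k (27.4 ± 3.0) overlapped at the top, and the TFIIIB subunit Bdp1 was lowest at 3.62 ± 0.30.

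WT R0D3 cultures had another order. Polr1d (18.5 CPM per kb ± 1.2) led Ubtf (17.2 ± 0.55) and Polr1c (12.9 ± 2.3) without overlap between neighbours, and Polr1e, which encodes a subunit found only in Pol I, was lowest at 1.24 ± 0.19. Maf1 stood far above all other Pol III genes at 52.1 ± 2.2, followed by Polr3gl at 16.5 ± 0.23, and Brf2 (2.49 ± 0.11) overlapped Polr3g (2.66 ± 0.37) at the bottom. The median over the 12 Pol I genes was 10.1 CPM per kb in WT forelimbs and 3.20 in WT R0D3 cultures, and over the 20 Pol III genes it was 13.3 and 5.38. Forelimb and culture tables were normalised separately, so the order within each is described and no test was made between them.

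**Figure D1:**
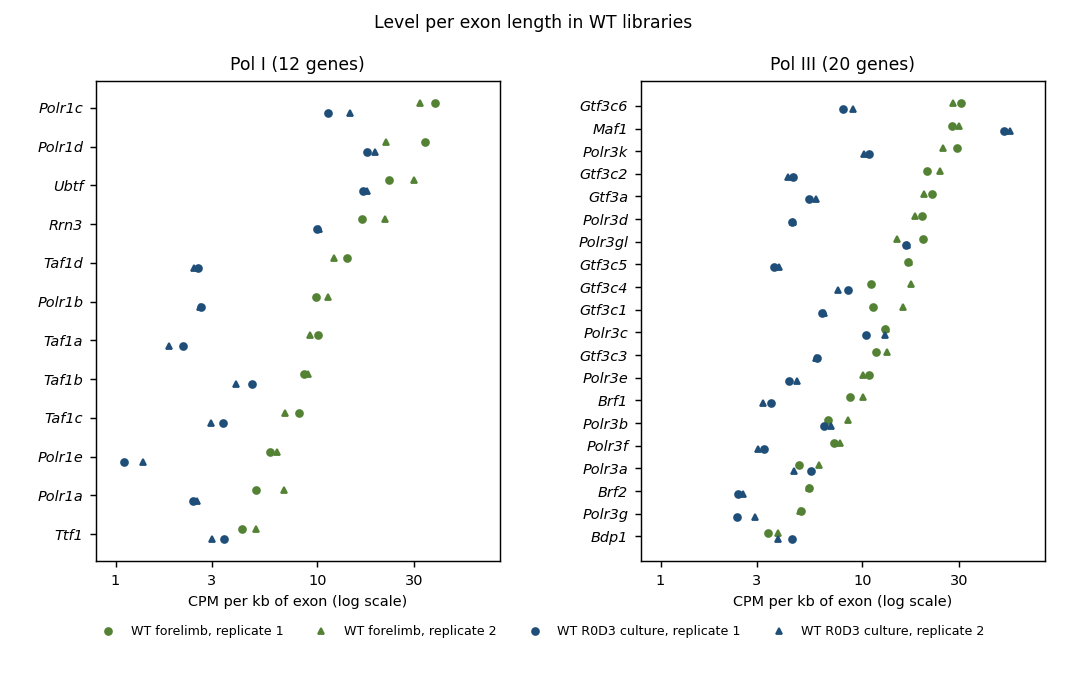
Level of each Pol I gene (left) and Pol III gene (right) in the WT forelimb libraries (green) and the WT R0D3 culture libraries (blue), in CPM per kb of exon on a log scale, with circles for replicate 1 and triangles for replicate 2 and genes ordered by the forelimb mean. By the mean, Maf1 and Bdp1 lie further right in the cultures than in the forelimb, and every other gene of both panels lies further left.

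The forelimb comparison asks what changed when Impdh2 was deleted in limb mesenchyme. No Pol I gene and no Pol III gene passed the edgeR test at an adjusted p under 0.05, nor did any of the 19987 genes tested (0.0%). Point estimates of the Pol I genes lay mostly above 0, with 9 of 12 positive and a median log2 fold change of 0.22, against a median of -0.03 over all genes tested. Of the Pol III genes 14 of 20 were positive, with a median of 0.08. Without WT replicate 1 the medians were 0.09 for Pol I and -0.02 for Pol III, so the sign of the latter rests on that library. At an unadjusted p under 0.05 there were 3 Pol I genes and 1 Pol III gene, all higher in Prx-cKO, where 10.5% of all genes had such a p in either direction. DESeq2 passed 301 genes in this comparison (1.43%), none of them among the 32.

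Polr1e, which pairs with another Pol I subunit to aid initiation, was at 22.8 and 24.6 CPM in WT and 32.9 and 36.1 in Prx-cKO. Neither Prx-cKO library overlapped the WT range, and the log2 fold change was 0.54 (95% interval 0.11 to 0.97, edgeR adjusted p = 0.447). Polr1b, the second largest subunit and part of the catalytic centre, was at 56.9 and 65.3 CPM in WT and 81.2 and 91.2 in Prx-cKO, also without overlap, with a log2 fold change of 0.50 (0.09 to 0.91, edgeR adjusted p = 0.452). Polr1c was at 87.6 and 73.8 CPM in WT and 104 and 117 in Prx-cKO (log2 fold change 0.46, 0.04 to 0.88, edgeR adjusted p = 0.469). These were the 3 Pol I genes of smallest p, all of them subunits of the enzyme itself, and none passed.

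The remaining Pol I genes were less separated. Polr1d had the same sort of mean difference, 0.43, but WT replicate 1 (103 CPM) exceeded Prx-cKO replicate 1 (95.5), while WT replicate 2 was at 66.8 and Prx-cKO replicate 2 at 133. Ubtf, which organises active ribosomal DNA, was at 149 and 197 CPM in WT and 181 and 210.0 in Prx-cKO, and the groups overlapped (log2 fold change 0.18). Rrn3 overlapped as well, with 71.9 and 93.3 CPM in WT and 84.3 and 109 in Prx-cKO (0.23). Of the SL1 subunits, Taf1a was lower in both Prx-cKO libraries than in both WT libraries (-0.21), and Taf1b (-0.01), Taf1c (0.20) and Taf1d (0.10) overlapped, as did Polr1a (0.27) and Ttf1 (-0.12). The 4 Pol I genes without overlap were 3 higher and 1 lower, where 22.2% of all genes tested were higher and 21.0% lower without overlap.

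The Pol III gene of smallest p was Gtf3a, which encodes TFIIIA, the factor dedicated to 5S ribosomal RNA genes. Its levels were 56.4 and 51.3 CPM in WT against 68.8 and 80.4 CPM in Prx-cKO, with no overlap and a log2 fold change of 0.47 (0.06 to 0.88, edgeR adjusted p = 0.462). Its exons share 59.1% of their bases with Mtif3 on the opposite strand, and the use of strand in counting is not given in the sources used here, so reads of the 2 genes may have been mixed; Mtif3 itself had a log2 fold change of 0.11 with overlapping groups. Brf2, the TFIIIB subunit for promoters that lie upstream of the gene, was at 17.5 CPM in both WT libraries and 23.9 and 22.4 in Prx-cKO (0.40, -0.05 to 0.85, edgeR adjusted p = 0.513). Polr3d, a subunit of the initiation and termination module, was at 56.5 and 52.1 CPM in WT and 63.2 and 79.2 in Prx-cKO (0.39, -0.06 to 0.84, edgeR adjusted p = 0.517).

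Its partner Polr3e had a log2 fold change of 0.31 and Polr3c one of 0.24, each without overlap between the groups. In the other direction, Bdp1 (-0.33), the TFIIIC subunit Gtf3c3 (-0.21) and Polr3f (-0.18) were lower in both Prx-cKO libraries. Brf1, the TFIIIB subunit for promoters inside the gene, was at 67.7 and 78.8 CPM in WT and 79.3 and 73.4 in Prx-cKO, and Maf1 at 67.4 and 72.2 against 61.8 and 81.0; both overlapped, at 0.06 and 0.03. Polr3g, at 19.6 and 19.3 CPM in WT and 21.8 and 21.6 in Prx-cKO, was higher without overlap (0.16), and its paralog Polr3gl, at 31.9 and 23.8 against 26.3 and 21.8, overlapped (-0.21). The signs of Brf1 and Maf1 turned when libraries were scaled by size alone (-0.04 and -0.07). The catalytic subunits Polr3a (0.15) and Polr3b (0.01) overlapped between the groups. Polr3k was at -0.08, and the remaining TFIIIC subunits Gtf3c1, Gtf3c2, Gtf3c4, Gtf3c5 and Gtf3c6 lay between -0.01 and 0.13. Among the 20 Pol III genes, 7 were higher and 3 lower without overlap, where 22.2% and 21.0% of all genes tested were.

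**Figure D2:**
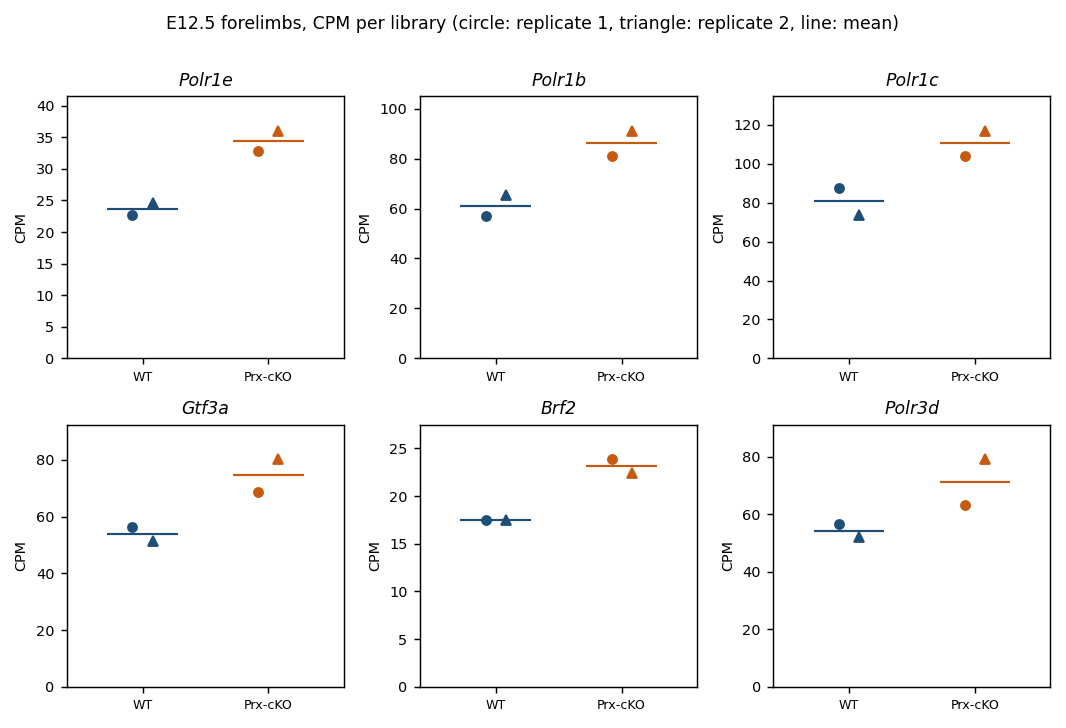
CPM per forelimb library of the 3 Pol I genes (upper row) and the 3 Pol III genes (lower row) of smallest p, WT in blue and Prx-cKO in orange, with circles for replicate 1, triangles for replicate 2 and a line at the mean. The Prx-cKO points lie above the WT points in each panel, and none of the 6 genes passed the adjusted test.

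The forelimb samples also differed in some cell markers. The 10 limb mesenchyme markers, of the tissue in which Prx-driven Cre acts, summed to 1642 and 1870 CPM in WT and 1169 and 1254 in Prx-cKO, with 4 of 10 lower at an unadjusted p under 0.05. The 8 endothelial markers summed to 152 and 161 CPM in WT and 201 and 210.3 in Prx-cKO, and 7 of 8 were higher without overlap. The 11 chondrogenic markers summed to 1086 and 1199 CPM in WT and 478 and 384 in Prx-cKO, and 10 of the 11 were lower at an unadjusted p under 0.05. The 8 myeloid markers summed to 41.4 and 37.3 CPM in WT and 78.8 and 69.7 in Prx-cKO, and the 9 skeletal muscle markers to 362 and 352 against 1016 and 473. The 16 cell cycle genes, which mark dividing cells, summed to 3637 and 4268 CPM in WT and 4465 and 5073 in Prx-cKO, with 5 of 16 higher at an unadjusted p under 0.05. The 10 erythroid markers summed to 4414 and 3140 CPM in WT and 4162 and 3309 in Prx-cKO. The 8 surface ectoderm markers summed to 625 and 777 CPM against 745 and 837. None of the erythroid or surface ectoderm markers had an unadjusted p under 0.05. No marker of these lists was at 0 in both libraries of a group. The part of these shifts in the Pol I and Pol III values was not tested, and in bulk RNA fewer cells of a type and less RNA per cell cannot be told apart.

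**Figure D3:**
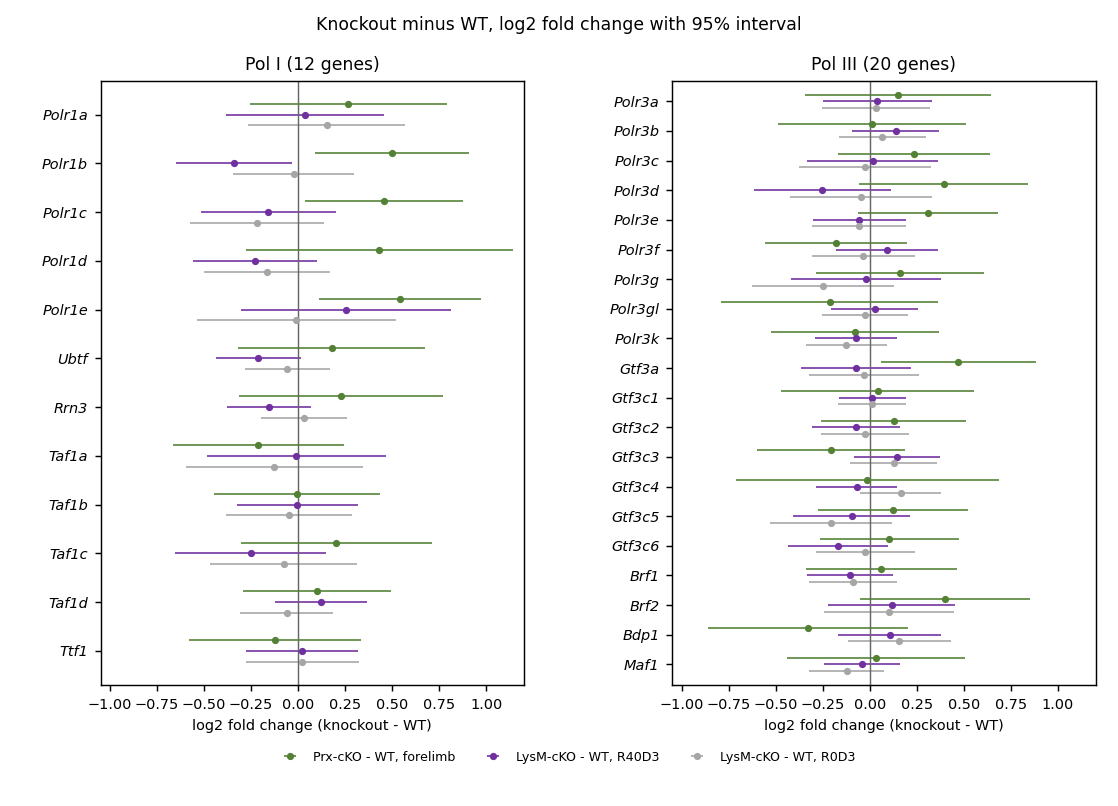
Log2 fold change of knockout against WT with its 95% interval for the 12 Pol I genes (left) and the 20 Pol III genes (right), in the forelimb (green), at R40D3 (purple) and at R0D3 (grey). Polr1b lies above 0 in the forelimb (0.50) and below 0 at R40D3 (-0.34), and no interval belongs to a gene that passed the adjusted test.

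At R40D3, LysM-cKO was compared with WT to ask what deletion of Impdh2 does in the myeloid cells of osteoclast cultures. None of the 32 genes passed the edgeR test, where 2 of the 14030 genes tested did (0.0143%), Impdh2 among them. DESeq2 passed 18 genes (0.183%) and none of the 32, and with the replicate number as a block 30 genes passed (0.214%), again none of the 32. The median log2 fold change was -0.08 over the Pol I genes and -0.03 over the Pol III genes, against -0.01 over all genes tested. The Pol III median turned to 0.04 when LysM-cKO replicate 1 was left out, to 0.02 when WT replicate 2 was, and to 0.01 with library size alone. A single Pol I gene, and no Pol III gene, had an unadjusted p under 0.05, where 7.47% of all genes did.

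That gene was Polr1b, at 22.2 and 23.1 CPM in WT against 16.7 and 19.2 in LysM-cKO. The groups did not overlap, and the log2 fold change was -0.34 (-0.65 to -0.03, edgeR adjusted p = 0.648). Ubtf was at 138 and 144 CPM in WT and 113 and 130.1 in LysM-cKO, again without overlap (-0.21, -0.44 to 0.01, edgeR adjusted p = 0.648). Polr1d was at 73.0 and 91.4 CPM in WT against 63.5 and 76.8 in LysM-cKO, and the groups overlapped (-0.23, -0.56 to 0.10, edgeR adjusted p = 0.685). Rrn3 was lower in both LysM-cKO libraries, at 44.2 and 50.2 CPM against 52.7 and 52.3 (-0.15).

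Of the other Pol I genes, Polr1c (-0.16) was lower without overlap, and Taf1d (0.12) and Polr1e (0.25) were higher without overlap, the last on 60 to 78 counts per library. Taf1c (-0.25), Polr1a (0.04), Ttf1 (0.02), Taf1a and Taf1b (both -0.01 or nearer to 0) overlapped. Without overlap, 2 Pol I genes were higher and 4 lower, and 3 Pol III genes were higher and 6 lower, where 19.7% and 18.9% of all genes tested were.

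The Pol III genes of smallest p at R40D3 were Polr3d, Gtf3c6 and Gtf3c3. Polr3d was at 15.8 and 17.5 CPM in WT and 13.1 and 14.9 in LysM-cKO (-0.25, -0.62 to 0.11, edgeR adjusted p = 0.686). Gtf3c6 was at 22.2 and 22.0 CPM against 20.5 and 18.7 (-0.17, edgeR adjusted p = 0.694), and Gtf3c3 at 28.7 and 31.7 against 34.3 and 32.4 (0.14, edgeR adjusted p = 0.698). None of these groups overlapped.

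Maf1 was at 106 and 105 CPM in WT and 97.2 and 109 in LysM-cKO (-0.04), Brf1 at 29.4 and 29.8 against 27.6 and 27.5 (-0.11), and Brf2 at 8.11 and 8.73 against 9.41 and 8.81 (0.12). Maf1 overlapped, while the Brf1 and Brf2 groups did not. Polr3g (-0.02) and Polr3gl (0.03) overlapped, at 6.93 to 7.70 CPM and 21.3 to 23.1 CPM over the 4 libraries. The remaining Pol III genes lay between -0.10 and 0.14. For 19 of the 20 Pol III genes and 9 of the 12 Pol I genes the 95% interval lay within a 1.5-fold change in either direction. It did so for 7053 of all genes tested (50.3%).

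At R0D3 none of the 32 genes passed either, where 2 genes did overall (0.0143%), Impdh2 again among them, and no member had an unadjusted p under 0.05 (4.42% of all genes did). DESeq2 passed 7 genes (0.0283%) and the block fit 3 (0.0214%), none of the 32 in either. Medians were -0.05 for Pol I, -0.03 for Pol III and 0.01 for all genes. Polr1c was at 25.6 and 33.0 CPM in WT and 22.6 and 27.7 in LysM-cKO (-0.22, -0.58 to 0.14, edgeR adjusted p = 0.997), with overlapping groups. Polr1d was lower in both LysM-cKO libraries, at 47.7 and 52.7 CPM against 53.8 and 58.9 (-0.17), and Polr1a overlapped (0.15).

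Gtf3c4, a TFIIIC subunit, was at 61.3 and 54.5 CPM in WT and 62.6 and 67.1 in LysM-cKO (0.16, -0.05 to 0.38, edgeR adjusted p = 0.997). Polr3g was at 9.44 and 11.5 CPM against 8.62 and 8.97 (-0.25, -0.63 to 0.13), and Gtf3c5 at 16.7 and 17.6 against 15.3 and 14.4 (-0.21, -0.53 to 0.12). Those 3 Pol III genes had the smallest p and non-overlapping groups. Polr1b, at 15.3 CPM in both WT libraries and 13.7 and 16.4 in LysM-cKO, overlapped at this stage (-0.03). Ubtf (-0.06), Rrn3 (0.03) and Brf1 (-0.09) overlapped as well. Brf2 was higher without overlap (0.10), and Maf1 (-0.12) and Polr3gl (-0.03) were lower without overlap. The Pol I genes not yet named lay between -0.13 and 0.02 and the Pol III genes between -0.12 and 0.16. Without overlap, 1 Pol I gene was lower and none higher, and 3 Pol III genes were higher and 5 lower, where 17.5% of all genes tested were higher and 14.8% lower. Intervals lay within a 1.5-fold change for 11 of 12 Pol I genes and 19 of 20 Pol III genes, and for 53.2% of all genes tested.

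Some cell markers moved with genotype in the cultures too. The 8 stromal markers differed between the LysM-cKO replicates, as given above. Without LysM-cKO replicate 2 none of the 32 genes passed in either culture, and the medians were -0.16 for Pol I and -0.06 for Pol III at R40D3 and -0.13 and -0.05 at R0D3. The 16 cell cycle genes summed to 396 and 381 CPM in WT and 420.0 and 685 in LysM-cKO at R40D3, and to 521 and 696 against 647 and 1353 at R0D3. The osteoclast markers at R40D3 summed to 26473 and 38999 CPM in WT and 13272 and 24987 in LysM-cKO, and 4 of the 11 were lower at an unadjusted p under 0.05. The 8 myeloid markers summed to 27735 and 28576 CPM in WT and 20486 and 19117 in LysM-cKO at R40D3, and to 38831 and 44424 against 23882 and 25199 at R0D3. Most of these sums is Lyz2, the gene whose promoter drives the LysM Cre, at 18949 and 20334 CPM in WT and 11773 and 11302 in LysM-cKO at R40D3 and 29996 and 35255 against 15404 and 16856 at R0D3. The median log2 fold change over the 8 myeloid markers was -0.08 at R40D3 and -0.12 at R0D3. At an unadjusted p under 0.05, 2 of them were higher and 1 lower at R40D3, and 1 was lower at R0D3. The 8 macrophage markers, without Lyz2, summed to 8091 and 7387 CPM in WT and 8735 and 7256 in LysM-cKO at R40D3. At R0D3 they summed to 8596 and 8493 against 8826 and 7907. Of the stromal markers 7 of 8 passed the filter, and none of them was at 0 in both libraries of a group. The part of these shifts in the members' values was not tested.

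R40D3 was then compared with R0D3 within each genotype. These comparisons share their samples with the genotype comparisons above, so the WT R40D3 values of Polr1b, for example, enter both. In WT, 2 Pol I genes rose and none fell, where 16.9% of all genes passed the edgeR test (2367 of 14030, 11.4% higher and 5.52% lower). No Pol III gene passed. The genes that rose were Polr1b and Polr1d, the first a catalytic subunit of Pol I and the second shared with Pol III. The median over the Pol I genes was 0.03 and over the Pol III genes -0.01, against 0.01 over all genes tested. The Pol I median turned to -0.05 without WT R40D3 replicate 2 and to -0.02 without the filter. Without WT R40D3 replicate 1, R0D3 replicate 1 or R0D3 replicate 2 the Pol III median was 0.01, 0.02 and 0.04, and it was 0.0007 with library size alone.

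Polr1b lies at chr2:129100995-129126594 on the plus strand of GRCm38. Its level was 15.3 CPM in both WT R0D3 libraries and 22.2 and 23.1 in the WT R40D3 libraries. The groups did not overlap, and the log2 fold change was 0.57 (0.25 to 0.88, SE 0.13, edgeR adjusted p = 0.0266). Polr1d (chr5:147077050-147111597, plus strand) was at 53.8 and 58.9 CPM at R0D3 and at 73.0 and 91.4 at R40D3, also apart, and the log2 fold change was 0.54 (0.21 to 0.87, SE 0.14, edgeR adjusted p = 0.0382).

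Both genes passed with either other scaling of library size. Ubtf passed as well with library size alone (edgeR adjusted p = 0.0423) and in the fit of only the 4 WT samples (0.0411). Without the filter on low counts neither gene passed (edgeR adjusted p = 0.0579 for Polr1b and 0.09 for Polr1d), and with DESeq2, which passed 15.1% of all genes, Polr1d alone did (adjusted p = 0.0548 for Polr1b and 0.0244 for Polr1d). Polr1b did not pass when any 1 of the 4 WT libraries was left out. Polr1d passed without WT R40D3 replicate 1 (edgeR adjusted p = 0.0413), but not without WT R40D3 replicate 2 (0.325), WT R0D3 replicate 1 (0.211) or WT R0D3 replicate 2 (0.127).

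Same-numbered cultures deviated together, so the replicate number was also used as a block. With the block 28.3% of all genes passed (3977), 16.7% higher and 11.6% lower, and 6 of the 32 genes did. Polr1b (edgeR adjusted p = 0.0062) and Polr1d (0.00122) were joined by Ubtf and Rrn3. Ubtf (chr11:102304560-102319742, minus strand) was at 110.0 and 115 CPM at R0D3 and 138 and 144 at R40D3, without overlap (log2 fold change 0.33, edgeR adjusted p = 0.0604 without and 0.00756 with the block). Rrn3 (chr16:13780708-13814839, plus strand) was at 43.1 and 44.0 CPM at R0D3 and 52.7 and 52.3 at R40D3, without overlap (0.27, edgeR adjusted p = 0.104 without and 0.0359 with the block).

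With the block 2 of the 20 Pol III genes passed, both lower at R40D3, where 11.6% of all genes passed lower. Point estimates were positive for 10 of the 20 and negative for 10. Polr3g (chr13:81673843-81711013, minus strand), a subunit that occurs in Pol III in place of its paralog Polr3gl, was at 9.44 and 11.5 CPM at R0D3 and 7.01 and 7.70 at R40D3. It was lower in both R40D3 libraries (log2 fold change -0.51, -0.89 to -0.13, edgeR adjusted p = 0.0762 without and 0.034 with the block). Maf1 (chr15:76351294-76354380, plus strand), which represses Pol III when nutrients are scarce, was at 122 and 129.5 CPM at R0D3 and 106 and 105 at R40D3 (-0.25, -0.45 to -0.05, edgeR adjusted p = 0.0955 without and 0.0294 with the block). Its groups did not overlap either.

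Polr3gl was at 26.2 and 26.7 CPM at R0D3 and 21.3 and 22.5 at R40D3, lower without overlap, and did not pass in either fit (-0.27, edgeR adjusted p = 0.11 without and 0.0654 with the block). Higher without overlap were Gtf3c5 (0.32), Polr3d (0.37), Brf1 (0.18), Gtf3c4 (0.15), Polr3e (0.09) and Gtf3c1 (0.03), none of which passed. Brf2 overlapped, with 7.75 and 8.27 CPM at R0D3 and 8.11 and 8.73 at R40D3 (0.07). Polr3k, Gtf3c2 and Gtf3c6 were lower without overlap, between -0.10 and -0.08, and the 7 Pol III genes not yet named lay between -0.09 and 0.05.

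Of the other Pol I genes in WT, Polr1e was lower in both R40D3 libraries, at 3.14 and 3.97 CPM against 4.31 and 5.35 (-0.45, -1.0 to 0.10), and Taf1a (-0.18) and Taf1d (-0.06) were lower without overlap. Taf1b was higher without overlap (0.21). Taf1c (-0.16), Polr1c (-0.14), Ttf1 (0.06) and Polr1a (-0.01) overlapped. Polr1c, the partner of Polr1d in the shared pair, thus had a point estimate below 0. In all, 5 Pol I genes were higher and 3 lower without overlap, and 6 Pol III genes were higher and 6 lower, where 32.9% and 29.2% of all genes tested were.

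**Figure D4:**
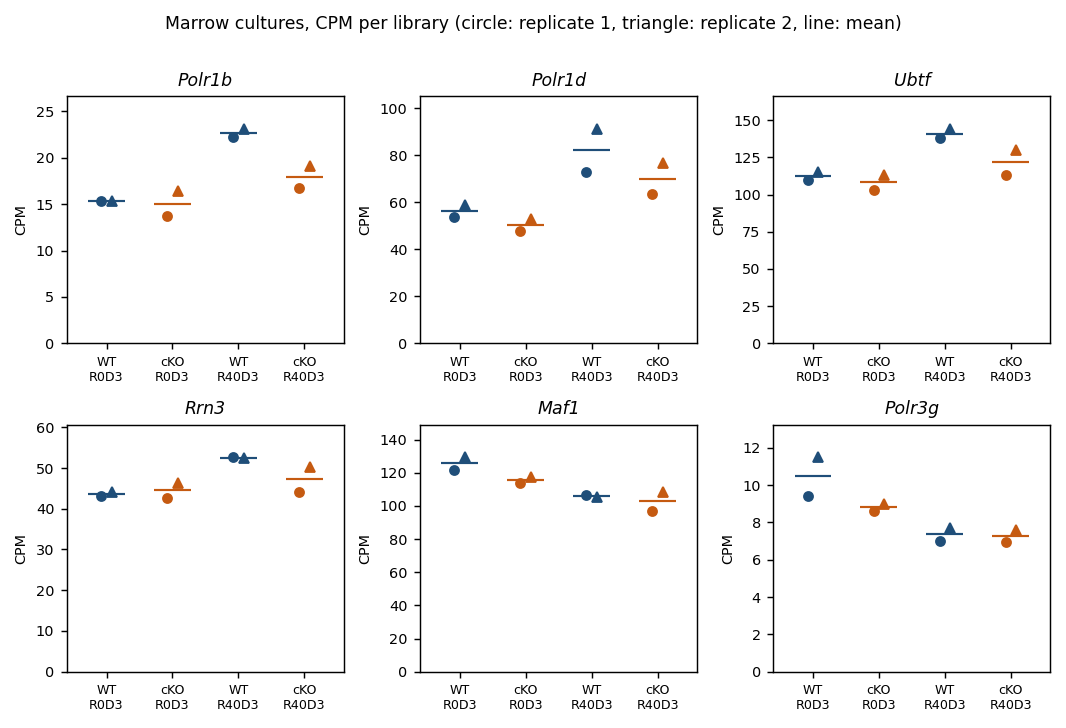
CPM per culture library of 6 genes, WT in blue and LysM-cKO in orange, R0D3 on the left and R40D3 on the right of each panel, with circles for replicate 1, triangles for replicate 2 and a line at the mean. In WT, Polr1b, Polr1d, Ubtf and Rrn3 are higher and Maf1 and Polr3g lower at R40D3 than at R0D3 in each library.

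Windows of 250 bases before the RefSeq start are shown for Polr1b, which was higher at R40D3 in WT, and for Rrn3 (higher) and Polr3g (lower), which passed in WT with the block only; none of the 3 passed in LysM-cKO, where the Rrn3 groups overlapped. They come from the RefSeq table for GRCm38.p6, which held 27 of the 32 genes (not Brf1, Brf2, Maf1, Polr3a or Polr3d). The Polr1d window lies inside the GENCODE gene and is not shown. The Polr1b window ends on the first base of its GENCODE gene. Each is written 5′ to 3′ on the strand of its gene. Capitals mark exact matches, on either strand, to the E-box CACGTG, the CCAAT box CCAAT, the GC-rich string GGCGGG or the ETS site CCGGAAGT. The string GGCGGG is not the usual GC box GGGCGG, which was not searched or marked.
Polr1b, chr2:129100746-129100995, plus strand: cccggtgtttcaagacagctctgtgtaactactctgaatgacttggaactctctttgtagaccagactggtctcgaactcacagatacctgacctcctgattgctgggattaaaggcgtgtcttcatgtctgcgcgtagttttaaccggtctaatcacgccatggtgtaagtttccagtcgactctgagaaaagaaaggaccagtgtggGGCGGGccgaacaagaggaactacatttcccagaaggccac
Rrn3, chr16:13780449-13780698, plus strand: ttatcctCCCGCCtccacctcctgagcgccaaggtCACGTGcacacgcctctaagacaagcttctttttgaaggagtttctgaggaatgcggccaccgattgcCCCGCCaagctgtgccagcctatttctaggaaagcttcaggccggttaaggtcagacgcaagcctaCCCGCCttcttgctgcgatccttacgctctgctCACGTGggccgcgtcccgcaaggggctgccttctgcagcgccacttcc
Polr3g, chr13:81711014-81711263, minus strand: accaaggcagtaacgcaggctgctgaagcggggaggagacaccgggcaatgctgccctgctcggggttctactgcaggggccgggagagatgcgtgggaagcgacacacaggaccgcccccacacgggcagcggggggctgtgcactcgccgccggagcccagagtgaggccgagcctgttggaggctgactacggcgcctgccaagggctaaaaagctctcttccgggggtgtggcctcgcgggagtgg

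The Rrn3 window holds 2 copies of the E-box, the letters bound by MYC and other factors of its family, and 3 of GGCGGG. The Polr1b window holds 1 copy of GGCGGG, and the Polr3g window none of the 4 strings searched. Over the 12 Pol I genes with a window, 1 held the E-box, 5 the CCAAT box, 7 GGCGGG and 4 the ETS site. Over the 15 Pol III genes with a window, the E-box was found in Gtf3c6, Polr3c and Polr3gl. The CCAAT box was found in 4 of them, GGCGGG in 8 and the ETS site in Polr3b. Of all 32851 windows of the table, 6.02% held the E-box, 33.8% the CCAAT box, 32.5% GGCGGG and 2.88% the ETS site. These shares are per window, while the counts above are per gene, and 4 of the genes had more than 1 window. A match describes the letters of the window and says nothing of binding.

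In LysM-cKO, none of the 32 genes passed for R40D3 against R0D3, where 10.1% of all genes did (1422); without replicate 2 of LysM-cKO at R40D3 or at R0D3, 475 and 399 genes passed and again none of the 32. With the block 21.3% passed (2983, 13.0% of all genes being higher), and among the higher were Polr1d and the TFIIIC subunit Gtf3c5. Polr1d was at 47.7 and 52.7 CPM at R0D3 and 63.5 and 76.8 at R40D3, without overlap (log2 fold change 0.48, 0.15 to 0.81, edgeR adjusted p = 0.08 without and 0.00336 with the block). Gtf3c5 was at 15.3 and 14.4 CPM at R0D3 and 18.3 and 21.9 at R40D3, also apart (0.43, 0.11 to 0.75, edgeR adjusted p = 0.0974 without and 0.0366 with the block).

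Polr1b was at 13.7 and 16.4 CPM at R0D3 and 16.7 and 19.2 at R40D3 in LysM-cKO, higher by 0.25 (-0.06 to 0.57, edgeR adjusted p = 0.317). Its groups did not overlap. Ubtf (0.17) was higher without overlap, at 103 and 113 CPM against 113 and 130.1, and Rrn3 overlapped (0.08). Taf1c was lower without overlap (-0.34, edgeR adjusted p = 0.289), Taf1b (0.26) and Taf1d (0.12) were higher without overlap, and Polr1a, Polr1c, Polr1e, Taf1a and Ttf1 overlapped, between -0.18 and 0.06.

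Among Pol III genes in LysM-cKO, Polr3gl (-0.22), Gtf3c6 (-0.25), Maf1 (-0.17), Polr3g (-0.28) and Gtf3c2 (-0.13) were lower without overlap. Maf1 was at 114 and 117 CPM at R0D3 and 97.2 and 109 at R40D3, and Polr3g at 8.62 and 8.97 against 6.93 and 7.58. Brf1 (0.16), Polr3f (0.09) and Brf2 (0.09) were higher without overlap. None of these passed with or without the block, and the other 11 Pol III genes overlapped, between -0.08 and 0.17. Without overlap, 5 Pol I genes were higher and 1 lower, and 4 Pol III genes were higher and 5 lower, where 27.3% and 22.5% of all genes tested were. The median was 0.07 over the Pol I genes and 0.00 over the Pol III genes, against 0.01 over all genes tested. Those medians turned to -0.06 and -0.05 without replicate 2 of LysM-cKO at R40D3, and were 0.12 and 0.04 without that of R0D3.

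**Figure D5:**
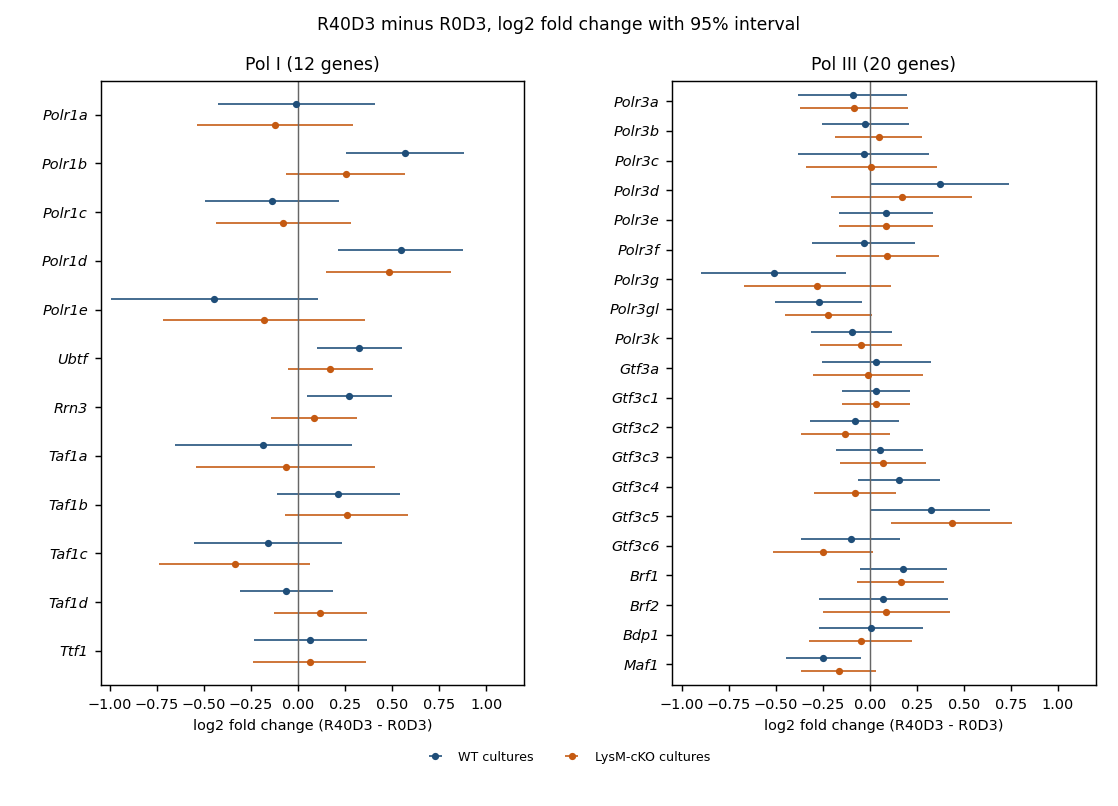
Log2 fold change of R40D3 against R0D3 with its 95% interval for the 12 Pol I genes (left) and the 20 Pol III genes (right), in WT (blue) and LysM-cKO (orange). In WT the intervals of Polr1b, Polr1d, Ubtf and Rrn3 and, narrowly, of Gtf3c5 and Polr3d lie above 0 and those of Polr3g, Polr3gl and Maf1 below it, before adjustment over all genes.

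Whether the change from R0D3 to R40D3 differed between the genotypes was tested as an interaction. No gene passed, with or without the block (0.0%), and 1.77% of all genes had an unadjusted p under 0.05, none of the 32 among them. DESeq2 passed none either. The interaction was -0.32 for Polr1b (-0.76 to 0.13), -0.19 for Rrn3 (-0.51 to 0.13) and 0.18 for Taf1d, and among Pol III genes -0.23 for Gtf3c4 (-0.54 to 0.07), 0.23 for Polr3g (-0.32 to 0.78) and -0.15 for Gtf3c6. Polr1d was at -0.06 (-0.53 to 0.41), Ubtf at -0.15 (-0.48 to 0.17) and Maf1 at 0.08 (-0.20 to 0.36). The medians were -0.03 for Pol I and 0.01 for Pol III, against -0.02 over all genes, and leaving out 1 library gave -0.10 to 0.09 for Pol I. So the passing of Polr1b in WT and not in LysM-cKO is not shown to be a difference between them.

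Osteoclast markers rose at R40D3 in both genotypes, all 11 of 11 passing, as the sums above show. The cell cycle genes were lower at R40D3, with 16 of 16 negative in each genotype and 1 passing in each. Of the 8 macrophage markers, 2 fell in each genotype. The part of these shifts in the Pol I and Pol III values was not tested.

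Pol III contains either Polr3g or Polr3gl, and the ratio of the pair was taken per kb of exon within each library. It was 0.249 and 0.330 in WT forelimbs and 0.337 and 0.404 in Prx-cKO forelimbs, so the Prx-cKO values lay above the WT values by little at the near ends. In the cultures the ratio was 0.146 and 0.175 in WT R0D3, 0.134 and 0.141 in LysM-cKO R0D3, 0.134 and 0.139 in WT R40D3 and 0.122 and 0.143 in LysM-cKO R40D3. Per kb of exon, Polr3gl was the more abundant of the pair in all 12 libraries. Before division by length the 2 were nearly equal in Prx-cKO forelimb replicate 2, with Polr3g at 21.65 CPM and Polr3gl at 21.77. For the TFIIIB pair, Brf2 to Brf1 was 0.627 and 0.540 in WT forelimbs and 0.731 and 0.739 in Prx-cKO. That ratio lay between 0.668 and 0.901 in the 8 cultures, so Brf1 was the more abundant per kb in all 12 libraries.

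Further components were read from lists outside the 32 genes. Of 6 other Pol I components (among them Tcof1 and Nolc1, nucleolar proteins that work with Pol I), 6 were positive in the forelimb with a median of 0.25, and none passed. Nolc1 was the only one to pass in any comparison: it was at 35.4 and 35.7 CPM in WT R0D3 and 58.5 and 54.5 in WT R40D3 (log2 fold change 0.67 with an SE of 0.11, edgeR adjusted p = 0.00753), and rose in LysM-cKO as well, from 33.4 and 38.6 to 46.3 and 53.5 (0.47, edgeR adjusted p = 0.0403). Its groups were apart in each genotype.

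Of 10 other Pol III components, including the SNAPC subunits for upstream promoters and the RNA-binding protein La (Ssb), none passed in any comparison; with the block Snapc5 fell in WT (-0.39, edgeR adjusted p = 0.025). Of 6 subunits and factors shared with Pol II, none passed, and with the block Polr2f rose in WT (0.56, edgeR adjusted p = 0.00273). Of 7 subunits found only in Pol II, the enzyme of messenger RNA, none passed; in the forelimb all 7 were positive, with a median of 0.27, close to the 0.22 of the Pol I genes.

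Products of the enzymes are mostly outside these data, because the labels' protocols name an mRNA kit for the libraries. Of 9 such transcripts on the list, 5 were tested in the forelimb and none passed. Their levels differed between WT replicates: Rn7s1, of the signal recognition particle RNA and nearly identical to Rn7s2, was at 26.7 and 5.29 CPM in WT and 22.1 and 12.1 in Prx-cKO, and Rmrp at 11.8 and 1.74 against 13.4 and 4.93. In the cultures none was tested, and no library held more than 8 counts of any.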

How the data were processed

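The authors deposited whole-number read counts per gene for mouse forelimbs and marrow cultures, 1 table for the 4 forelimb libraries and 1 per replicate number for the 8 cultures, per the file headers. The submitters' processing notes name FastQC 0.11.2, Trimmomatic 0.36, HISAT2 2.1.0, DESeq2 1.12.4 and the build GRCm38, without their roles; the counting tool, its gene annotation and its strand setting are not given in the sources used here, so reads of overlapping genes may be mixed. Symbols, positions and exon lengths came from GENCODE M21 (GRCm38), and 99.6% (forelimb) and 99.5% (culture) of identifiers had a symbol.

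Counts were tested as deposited with edgeR 4.0.16 (filterByExpr, TMM scaling, quasi-likelihood test, legacy = FALSE, two-sided), fitted to the whole table, with Benjamini-Hochberg adjustment over all genes tested; a gene passed at an adjusted p under 0.05. Forelimb libraries (4) and cultures (8) were fitted separately, with the group as the model. DESeq2 1.42.0, other scalings, no filter, edgeR's older dispersion setting, the replicate block, fits of only the 4 samples compared and leaving out each library were alternatives, in R 4.3.3. The fits were tested on simulated counts. Intervals are 95% and cover the spread between libraries; deeper libraries carry less counting error. Same-numbered culture samples deviated together, with correlations of their deviations from the group means of 0.343 to 0.609 over the 6 pairs of groups. The number was therefore taken to pair them. Each number is also a separate table, so a pairing of samples and a difference between the tables cannot be told apart. The forelimb pair of groups gave 0.261, and its numbers are taken as numbers only. The replicates differed by more than sampling noise, so none was counted as a duplicate.

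The 32 genes were accounted for one by one, with per-library values for those that passed, for the 3 of smallest p in each machinery where none did, and for Polr3g, Polr3gl, Brf1, Brf2, Maf1, Rrn3 and Ubtf. The genes and lists were chosen with earlier results of these data known. Figures were drawn with matplotlib 3.10.9.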

Additional observations from a re-analysis of the deposited data

Results flagged for a closer look

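For 6 genes the groups did not overlap in both settings and the direction was opposite, higher in the knockout in 1 and lower in the other. That is 18.8% of the 32 genes, near the 17.5% of all 13244 genes tested in both tables that did so. Forelimb and cultures use different Cre drivers and were fitted separately, none of these values passed the test, and the differences themselves were not tested. Polr1b had a log2 fold change of 0.50 in the forelimb and -0.34 at R40D3, and Polr1c one of 0.46 and -0.16. Polr3d was at 0.39 in the forelimb and -0.25 at R40D3, and Gtf3c6 at 0.10 and -0.17. Polr3g was at 0.16 in the forelimb and -0.25 at R0D3. Gtf3c3 ran the other way, at -0.21 in the forelimb, 0.14 at R40D3 and 0.13 at R0D3.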

How the results depend on the processing

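No Pol I or Pol III gene passed in the forelimb, in either genotype comparison of the cultures or in the interaction, under any alternative run, the replicate block included. For R40D3 against R0D3 in WT, 2 Pol I genes passed in the fit reported first, 0 without the filter, 1 with DESeq2, 3 with library size alone, 3 in the fit of only the 4 samples compared, 4 with the replicate block and 0 to 1 when a library was left out; the cause was not tested. With the replicate block 2 Pol III genes passed in WT, and 1 Pol I and 1 Pol III gene in LysM-cKO, where none did before; the block changed no other call among the 32 genes. In the forelimb, where the numbers were not taken to pair the samples, 0 genes passed with the replicate block.

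Small values changed sign. With library size alone the forelimb log2 fold change was -0.036 for Brf1 and -0.069 for Maf1, Polr3g was at 0.020 for LysM-cKO against WT at R40D3, and the interaction of Brf1 was at 0.0086; that scaling moved the forelimb median of all genes by -0.10. Without the filter Maf1 in the forelimb was at -0.00081 and the interaction of Brf1 at 0.012. Leaving out 1 library gave, in the forelimb, -0.081 to 0.18 for Brf1, -0.17 to 0.22 for Maf1 and -0.045 to 0.40 for Ubtf. For LysM-cKO against WT it gave, at R40D3, -0.14 to 0.060 for Maf1, -0.10 to 0.070 for Polr3g and -0.020 to 0.076 for Polr3gl, and, at R0D3, -0.13 to 0.36 for Polr1a and -0.034 to 0.068 for Rrn3. For R40D3 against R0D3 it gave -0.048 to 0.18 for Rrn3 in LysM-cKO and -0.025 to 0.12 for Brf2 in WT. The interaction ran from -0.079 to 0.071 for Brf1, -0.033 to 0.092 for Brf2 and -0.0047 to 0.20 for Maf1.

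With 2 libraries a group the intervals set the limit: in the forelimb they lay within a 1.5-fold change for 3 of 12 Pol I and 9 of 20 Pol III genes, so a change of that size is not excluded for the others. A group left with 1 library was assumed to vary like the others.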
